A study of Mus musculus with 9 samples.

Results

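The genes described here are 10 members of the Wnt pathway: the ligands *Wnt4*, *Wnt7b* and *Wnt10a*, the receptors *Fzd6*, *Lgr4* and *Lgr5*, the feedback target *Axin2*, the transcription factors *Lef1* and *Tcf7*, and *Dkk3*, a secreted protein of the Dickkopf family. They were chosen by name, and all 10 were present among the 23366 entries of the deposited count tables. RNA-seq was performed on 6 libraries of mSGc, a spontaneously immortalized epithelial line from the submandibular gland, and on 3 libraries of IMOK, a spontaneously immortalized line of oral keratinocytes. Both lines came from C57BL/6 mice 12 weeks of age, and the donors of the gland cells were male. The mSGc libraries were taken at passages 2, 4, 10 and 25 in progenitor medium and at passages 10 and 25 in differentiating medium, with 1 library for each condition. The authors' text names the media by whether they hold serum, and no source used here says which of these the labels' progenitor and differentiating media are. By the labels, P2 and P4 are early, P10 is mid and P25 is late passage, and the IMOK libraries are early passage cells grown in IMOK medium. The authors' text instead treats the IMOK cells as matched in passage to the mid passage mSGc, so the passage of IMOK is uncertain. This bears on the comparison with P10 below. All mSGc libraries are thus serial samples of a single line without replicates, and against IMOK the cell line, the medium and the experiment cannot be told apart.

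Wnt proteins are secreted lipid-modified ligands that bind Frizzled receptors together with Lrp5 or Lrp6. In the canonical branch this stops the destruction of β-catenin, which then joins the TCF/LEF factors in the nucleus and turns on targets such as *Axin2*, itself a scaffold of the destruction complex. R-spondins, acting through Lgr receptors, keep Frizzled receptors at the cell surface, and secreted inhibitors hold the ligands or co-receptors in check. In salivary glands the pathway is known for its part in branching, duct formation and regeneration, and in oral epithelium for tooth and taste papilla development.

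The libraries held between 6237884 counts (P25 in differentiating medium) and 18444963 counts (IMOK replicate 1). The other totals were 10879981 at P2, 17089965 at P4, 8891878 and 15438288 at P10 and P25 in progenitor medium, 13186820 at P10 in differentiating medium, and 18073866 and 16848411 in IMOK replicates 2 and 3. A floor of 3 counts, about the upper 95% limit of the expected count where 0 is seen, was used. It corresponds to between 0.163 and 0.481 CPM (counts scaled to the library total) in these libraries. Floors and intervals cover counting error only, and folds over a floor take the other level as measured. Levels are given as TPM, a gene's counts divided by its length and scaled to the same sum in every library, so that they can be compared between genes.

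IMOK replicate 1 stood apart from the other IMOK libraries. The chi-square of counts per degree of freedom was 150 between replicates 1 and 2, 180 between replicates 1 and 3, and 21.3 between replicates 2 and 3. The closest mSGc libraries by this measure, those of P25 in the 2 media, gave 37.7. The measure grows with depth, and P25 in differentiating medium had the fewest counts, so 37.7 is not on the same scale as the values of IMOK. Nothing in the labels says that the IMOK replicates come from separate cultures, so p-values measure only the spread between these libraries, which may be technical. In the tests against IMOK the mSGc libraries were fitted as a single group, so their differences in passage and medium are part of the error. Where leaving out replicate 1 ended a call among the genes named or moved a fold by over 1.5 times, the value without it is given too.

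Epithelial markers were present in every library. All 6 basal epithelial markers and 6 of 7 pan epithelial markers reached 1 TPM in all 9 libraries. By the mean over the 9 libraries *Krt5* and *Krt8* were the most abundant of each list. They did not lead in every library, as *Krt14* lay above *Krt5* at P2 and *Krt18* above *Krt8* in IMOK replicate 1. The defining endothelial markers, 5 of 5, stayed under 1 TPM in all 9 libraries. Of the immune markers *Ptprc*, *Cd3e* and *Itgam* stayed under 1 TPM in all 9 libraries, *Cd3e* had no count, and the most abundant was *Cd14* in the mSGc libraries and *Cd68* in the IMOK libraries, with 33.4, 8.74 and 4.58 TPM in replicates 1, 2 and 3. Of 10 mesenchymal markers *Lum*, *Pdgfra* and *Pdgfrb* stayed under 1 TPM in all libraries, and *Vim* made up most of a summed level between 137 and 558 TPM. The 5 Schwann and neural markers summed to between 2.50 and 6.10 TPM in mSGc and to 26.4, 20.8 and 17.6 TPM in IMOK, where *Ncam1* held most of it and *Sox10* and *S100b* were under 1 TPM.

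The summed level of 7 acinar markers was higher in the keratinocyte line than in the gland line. The sum was 18.3 TPM at P2, 99.4 at P4, 21.3 and 14.0 at P10 and P25 in progenitor medium, 43.3 and 21.5 at P10 and P25 in differentiating medium, and 213, 338 and 311 in IMOK replicates 1, 2 and 3. In the IMOK replicates 1, 2 and 3 *Amy1* had 0.129, 22.1 and 24.9 TPM, *Pip* 0, 39.2 and 31.5, *Dcpp1* 0, 7.33 and 5.86, and *Bpifa2*, a salivary secretory protein, 0, 158 and 175, so these 4 were at or near 0 in replicate 1 and present in replicates 2 and 3. *Aqp5*, a water channel, had 213, 111 and 72.9 TPM and was the only 1 of 5 tested that was called, as lower in mSGc. Within mSGc *Pip* (59.1 TPM), *Bpifa2* (15.8), *Dcpp1* (13.9) and *Smgc* (1.76) were highest at P4, *Amy1* reached 3.38 TPM at P10 and *Aqp5* 20.9 at P25, both in differentiating medium, and *Bhlha15* stayed under 1 TPM in every library. Whether all 3 IMOK libraries hold the cells their labels name was not tested, and this bears on every value against IMOK. Myoepithelial and smooth muscle markers, 5 in number, summed to 769 TPM at P2, 125 at P4, 11.3 and 50.7 at P10 and P25 in progenitor medium, 76.8 and 7.97 in differentiating medium, and 961, 10.2 and 15.4 in the IMOK replicates. The high values, led by *Acta2*, were those of P2 and IMOK replicate 1. In bulk libraries fewer cells of a type and less RNA per cell cannot be told apart.

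Between the lines, 9 of the 10 genes had enough counts to be tested, all but *Lgr5*. By edgeR's quasi-likelihood test, with p-values adjusted by the method of Benjamini and Hochberg over all genes tested, 2 of these 9 had an adjusted p under 0.05, *Lef1* and *Tcf7*, both lower in mSGc. No member was higher, while 4 had an unadjusted p under 0.05, beside 30.4% of all genes, and DESeq2 and voom each called 3, *Wnt7b* besides, where 21.6% and 16.6% of all genes passed. Over all 12885 genes tested, 14.9% passed in either direction, 8.30% as lower and 6.58% as higher in mSGc. A count of 2 among 9 is too small to be read as differing from that background, and *Lef1* passed the filter on low counts only through its level in IMOK. The count of all genes called was 1918, and it was 738 without IMOK replicate 2 and 943 without IMOK replicate 3. Without TMM factors the median of all genes moved from 0.0023 to -0.10 on the log2 scale, and the split of calls moved from 848 higher and 1070 lower to 663 higher and 1373 lower, and DESeq2 gave 1550 higher and 1505 lower, so the balance of directions depends on the method. In 3 of the 9 genes tested, *Wnt7b*, *Lef1* and *Tcf7*, every mSGc library lay under every IMOK library in TPM, which held for 17.0% of all genes tested in the same direction. No member lay wholly above IMOK, beside 5.22% of all genes. Of the markers, *Aqp5*, *Ncam1*, *Mylk* and *Cd68* were called as lower and *Krt14*, *Krt15*, *Itgb4*, *Cdh1* and *Cd14* as higher in mSGc by edgeR, so acinar, neural, muscle, immune and epithelial lists each held a difference, whose part in those of the 9 genes was not tested. Some uncalled epithelial markers had a lower mean TPM in mSGc than in IMOK. These were *Epcam* (457 against 810), *Krt19* (77.9 against 309), *Itga6* (122 against 212) and *Trp63* (66.3 against 107). The remaining epithelial markers had higher means in mSGc. In the muscle list *Cnn1*, *Myh11* and *Tagln* had higher and *Acta2* lower means in mSGc. *Aqp5* and *Ncam1* were called in all 9 fits that left out a library. *Mylk* without IMOK replicate 1 went from a log2 fold change of -3.44 to -2.01 (adjusted p of 0.0813), *Cd68* from -2.26 to -1.15 (0.131), and *Krt14* had 0.0714. Calls were lost without IMOK replicate 2 for *Krt14* (0.120), *Itgb4* (0.192), *Cdh1* (0.0724) and *Cd14* (0.0752), without IMOK replicate 3 for these 4 (0.0870, 0.166, 0.0501 and 0.0672) and *Krt15* (0.0745), and without P4 for *Krt14*, just above the threshold. *Itgb4* was called in 1 of the 9 fits, that without IMOK replicate 1 (0.00358), and had 0.0588 to 0.0745 without an mSGc library. Over all alternatives the highest adjusted p of these 9 markers ran from 0.0514 for *Aqp5* to 0.550 for *Itgb4*, so none kept its call in every one.

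**Figure D1:**
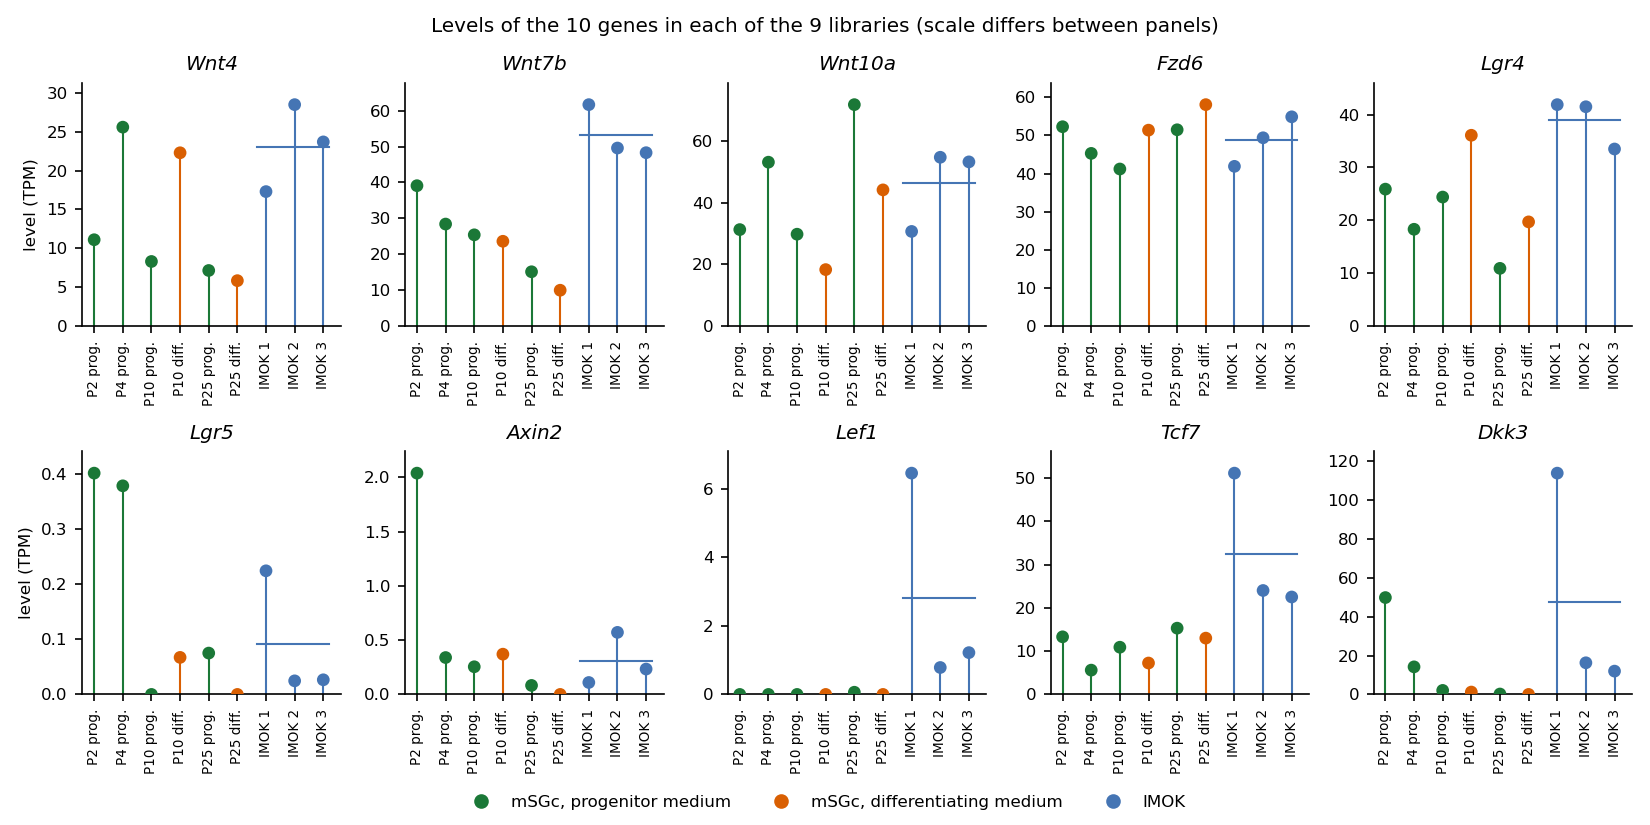
TPM of the 10 Wnt pathway genes in each of the 9 libraries, with 1 point for each library and a blue line at the IMOK mean. *Wnt7b*, *Lef1* and *Tcf7* lie lower in every mSGc library than in every IMOK library, and *Dkk3* has 49.9 TPM at P2 and no count at P25 in differentiating medium.

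Among the ligands, *Wnt10a*, *Wnt7b* and *Wnt4* carried most of the Wnt message in both lines. Summed over the 19 Wnt genes, the level was 111 TPM at P2, 121 at P4, 77.5 and 107 at P10 and P25 in progenitor medium, 85.9 and 77.1 in differentiating medium, and 152, 150 and 143 in the IMOK replicates. The 3 ligands held between 71.9% and 88.8% of that sum in the 9 libraries. *Wnt10a* or *Wnt7b* led in every library, and *Wnt9a* came next after them at P2 and in progenitor medium at P10 and P25. At P25 in differentiating medium *Wnt9a*, with 14.4 TPM, came second and above *Wnt7b* and *Wnt4*. Of the 19 ligands, 9 stayed under 1 TPM in all 9 libraries and 3 of these had no count.

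*Wnt7b* (mm9 chromosome 15, 85365867 to 85412251) encodes a canonical ligand of stratified and branching epithelia. Its level was 39.1 TPM at P2, 28.4 at P4, 25.4 and 15.1 at P10 and P25 in progenitor medium, 23.6 and 9.95 at P10 and P25 in differentiating medium, and 61.7, 49.6 and 48.3 in IMOK replicates 1, 2 and 3. All 6 mSGc libraries lay under all 3 IMOK libraries, and within mSGc the level was lower at each later passage in progenitor medium. The log2 fold change of mSGc against IMOK was -0.96 (SE 0.32), with an adjusted p of 0.0683 by edgeR's quasi-likelihood test. DESeq2 gave 0.0431, limma's voom gave 0.0490, and the fit without the P2 library gave 0.0360, out of a range of 0.0360 to 0.274 over the alternatives. Per doubling of the passage number the difference was -0.35 (SE 0.10), with an adjusted p of 0.201 by edgeR and 0.0432 by DESeq2, and a range of 0.0432 to 0.773. The gene overlaps the entry AU022754 at its end, and whether the authors' counting used strand is not given in the sources used here.

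*Wnt10a* (chromosome 1, 74838593 to 74850749), a ligand of skin appendage and tooth development, did not separate the lines. Its level was 31.3 TPM at P2, 53.2 at P4, 29.8 and 71.9 at P10 and P25 in progenitor medium, 18.3 and 44.2 in differentiating medium, and 30.7, 54.8 and 53.3 in the IMOK replicates. The mSGc values spanned the whole range of IMOK. The log2 fold change was 0.09 (SE 0.45), with an adjusted p of 0.915 by edgeR's quasi-likelihood test, and its sign turned negative without TMM factors (-0.02), with voom (-0.01) and without the libraries of P4 (-0.0049), P25 in progenitor medium (-0.19) or IMOK replicate 1 (-0.17), over a range of adjusted p from 0.552 to 0.996. Its share of all Wnt ligand TPM was 67.0% at P25 in progenitor medium and 20.1% in IMOK replicate 1.

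*Wnt4* (chromosome 4, 136833550 to 136855416) is a ligand that acts through canonical and other branches, depending on the tissue. Its level was 11.1 TPM at P2, 25.6 at P4, 8.30 and 7.14 at P10 and P25 in progenitor medium, 22.3 and 5.83 in differentiating medium, and 17.3, 28.5 and 23.7 in the IMOK replicates. P4 and P10 in differentiating medium reached the range of IMOK, and the other 4 mSGc libraries lay under it. The log2 fold change against IMOK was -0.59 (SE 0.46), with an adjusted p of 0.422 by edgeR.

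**Figure D2:**
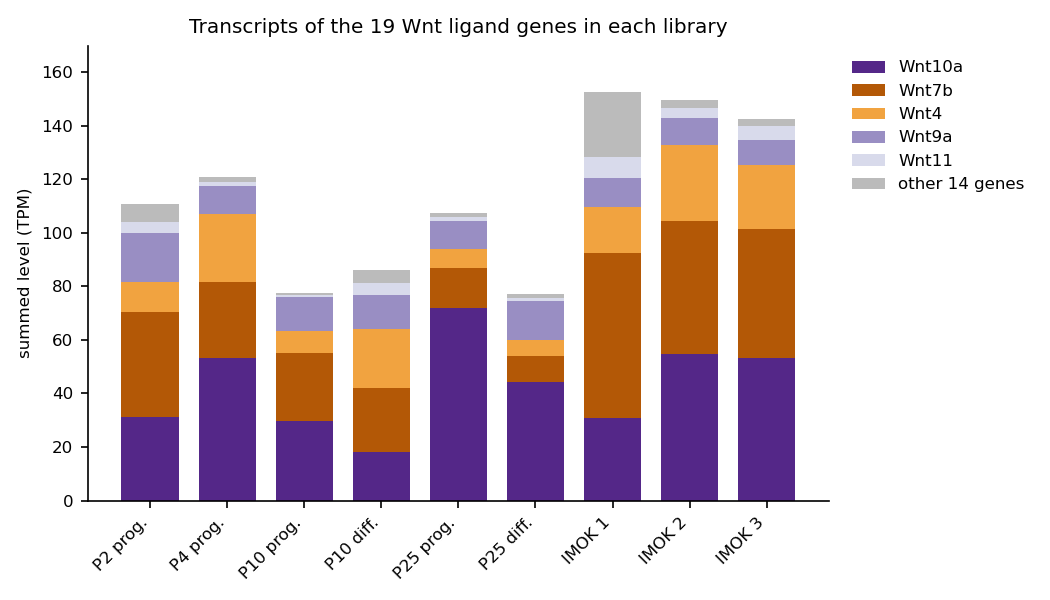
TPM of the Wnt ligands in each of the 9 libraries, stacked for the 3 ligands described here and the remaining Wnt genes. *Wnt4*, *Wnt7b* and *Wnt10a* hold between 71.9% and 88.8% of each bar.

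The receptor *Fzd6* (chromosome 15, 38837826 to 38869736), a Frizzled known for hair patterning and planar polarity, was the most evenly expressed of the 10 genes. It stood at 52.3 TPM at P2, 45.3 at P4, 41.2 and 51.5 at P10 and P25 in progenitor medium, 51.4 and 58.1 in differentiating medium, and 41.9, 49.4 and 54.9 in the IMOK replicates. The ranges of the lines overlapped almost fully, and the log2 fold change was 0.25 (SE 0.18) with an adjusted p of 0.400 by edgeR's quasi-likelihood test. *Fzd6* held between 16.3% and 38.9% of the summed Frizzled TPM. It was the leading Frizzled in 4 of the 6 mSGc libraries and in IMOK replicates 2 and 3, and *Fzd7* led in the other libraries, IMOK replicate 1 among them.

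*Lgr4* (chromosome 2, 109757804 to 109854414), the broadly expressed R-spondin receptor, stood at 25.9 TPM at P2, 18.3 at P4, 24.4 and 10.9 at P10 and P25 in progenitor medium, 36.1 and 19.7 in differentiating medium, and 41.9, 41.5 and 33.5 in the IMOK replicates. Of the mSGc libraries P10 in differentiating medium alone reached the IMOK range. The log2 fold change was -0.60 (SE 0.25), with an adjusted p of 0.128 by edgeR.

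*Lgr5* (chromosome 10, 114887370 to 115024836), an R-spondin receptor that marks stem cells in several epithelia, was near the limit of detection. It had 10 counts at P2, 16 at P4, 0 and 3 at P10 and P25 in progenitor medium, 2 and 0 in differentiating medium, and 9, 1 and 1 in the IMOK replicates. These are levels of at most 0.401 TPM. P2, P4 and IMOK replicate 1 held most of the counts, the lines overlapped, and the gene was not tested between them. Its span overlaps A930009A15Rik and Mir684-1.

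*Axin2* (chromosome 11, 108781663 to 108812095), the target most often read as a sign of canonical signaling, was low in every library. Its level was 2.04 TPM at P2 and 0.340 at P4, 0.255 and 0.0829 at P10 and P25 in progenitor medium, 0.371 and 0 in differentiating medium, and 0.110, 0.572 and 0.234 in the IMOK replicates. P2 stood above all others, P25 in differentiating medium had no count, and the remaining mSGc values overlapped those of IMOK. The level at P2 was at least 9.10-fold higher than the floor of 3 counts in the P25 library in differentiating medium. Against IMOK the log2 fold change was 0.88 (SE 1.11), with an adjusted p of 0.647 by edgeR, and without the P2 library it was -0.29 with an adjusted p of 0.863, the highest of a range of 0.475 to 0.863. Without IMOK replicate 2 it was 1.68 (0.539).

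Genes whose levels ran most like *Axin2* over the 9 libraries, by Pearson's r of log2(TPM + 1) among 10189 genes, were *Arhgef3* (0.950), *Creld1* (0.930) and *Ralb* (0.926). Each was highest at P2, and Spearman's rho was 0.817, 0.850 and 0.600. None of these 3 was among the first 3 by rho, and 1 was among the first 3 within the 6 mSGc libraries. For *Lgr5* the first 3 were *Edf1* (0.980), *Capzb* (0.967) and *Fhl2* (0.960), with rho of 0.996, 0.845 and 0.904. These values describe the 9 libraries, 6 of which are passages of a single line, and with counts as sparse as those of *Lgr5* they are no more than that.

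*Lef1* (chromosome 3, 130813215 to 130927275) encodes a TCF/LEF factor that is itself a target of the pathway. Its reads were 203, 25 and 36 in IMOK replicates 1, 2 and 3, or 6.46, 0.786 and 1.22 TPM. In mSGc it had 2 counts at P25 in progenitor medium, or 0.0638 TPM, and no count in the other 5 libraries. No mSGc library reached the lowest IMOK library, and IMOK replicate 1 lay far above the others. Over pooled libraries the counts were 2 and 264, and the ratio of IMOK to mSGc was 177 with an exact 95% counting interval of 48.6 to 1473. IMOK replicate 1 gave 203 of these 264 counts, and without it the counts were 2 and 61 and the ratio was 62.6, with an interval of 16.6 to 529. The adjusted p was 0.00246 by edgeR's quasi-likelihood test with a log2 fold change of -6.92 (SE 1.03), a size that depends on the prior count. Without P25 in progenitor medium, which holds both mSGc counts, it was -8.97 with an adjusted p of 0.0168, and without IMOK replicate 1 it was -5.55 with 0.00726, in a range of 1.33e-06 to 0.0168 over the alternatives that tested the gene. No mSGc library and all 3 IMOK libraries reached the level that the filter asks for, so the gene passed the filter only through IMOK, and that range is no measure of stability. Requiring 10 counts in every library left it untested.

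*Tcf7* (chromosome 11, 52066106 to 52095752), a TCF/LEF factor that is also a target, was the other gene called. Its level was 13.3 TPM at P2, 5.61 at P4, 10.9 and 15.3 at P10 and P25 in progenitor medium, 7.25 and 13.0 in differentiating medium, and 51.1, 24.0 and 22.5 in the IMOK replicates. All 6 mSGc libraries lay under all 3 IMOK libraries, and IMOK replicate 1 was the highest of them. The log2 fold change was -1.31 (SE 0.37), with an adjusted p of 0.0384 by edgeR's quasi-likelihood test. Without IMOK replicate 1 it was -0.92, and the adjusted p was 0.139, the highest of a range of 0.00777 to 0.139 over the alternatives. The call was also lost without P2 (0.0539), P4 (0.0603), P10 in progenitor medium (0.0602), P10 in differentiating medium (0.0609), P25 in differentiating medium (0.0523), IMOK replicate 2 (0.0757) or IMOK replicate 3 (0.0642), and held without P25 in progenitor medium (0.0257).

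*Dkk3* (chromosome 7, 119259533 to 119302571), a divergent Dickkopf protein whose action on the pathway differs between tissues, had the widest range of the 10 genes. Its level was 49.9 TPM at P2, 14.2 at P4, 2.07 and 0.210 at P10 and P25 in progenitor medium, 1.22 and 0 in differentiating medium, and 114, 16.3 and 12.0 in IMOK replicates 1, 2 and 3. Each later passage in progenitor medium was lower than the one before, and the lines overlapped through P2 and P4. The level at P2 was 237-fold that at P25 in progenitor medium, which rests on 6 counts, and at least 175-fold higher than the floor of 3 counts in the P25 library in differentiating medium. Against IMOK the log2 fold change was -1.83 (SE 1.41), with an adjusted p of 0.422 by edgeR, and it moved to -0.23 (0.941) without IMOK replicate 1 and to -3.34 (0.120) without P2, in a range of adjusted p from 0.112 to 0.941.

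Across passages of mSGc, fitted together with medium, 8 of the 10 genes were tested, all but *Axin2* and *Lef1*. *Dkk3* was the only one called by edgeR and by voom, where 0.602% of all genes passed, and DESeq2 called *Wnt7b* besides, where 5.62% passed. *Dkk3* fell by 2.13 on the log2 scale per doubling of the passage number (SE 0.20), with an adjusted p of 0.0226 by edgeR's quasi-likelihood test. Over all 12451 genes tested 0.490% were called, 55 as falling (0.442%) and 6 as rising (0.0482%), so that 1 gene of 8 is a result on *Dkk3* and not on the pathway genes as a group. The adjusted p of *Dkk3* ran from 2.44e-17 to 0.315 over the alternatives, and the call was lost without P2 (0.315), P4 (0.108) or P25 in progenitor medium (0.154). The count of all genes called was 61, and it was 0 without P2, 2 without P4, 329 without P10 in progenitor medium, 32 without P10 in differentiating medium, 0 without P25 in progenitor medium and 31 without P25 in differentiating medium. At an unadjusted p under 0.05 edgeR gave 697 genes without P2 and 957 without P25 in progenitor medium. The summed level of the myoepithelial and smooth muscle markers was highest in the same libraries as *Dkk3*, with 769 TPM at P2 and 961 in IMOK replicate 1, next highest in mSGc at P4 with 125, and lowest in mSGc at P25 in differentiating medium with 7.97. *Tagln*, *Cnn1* and *Myh11* of that list were likewise highest in mSGc at P2, with 199, 21.2 and 3.30 TPM, and next highest at P4, with 16.9, 1.51 and 0.202. *Mylk* was highest at P2 too, with 0.919 TPM, but its 0.185 TPM at P4 lay under 3 of the 4 later libraries. *Acta2*, which held most of the sum, was 544 TPM at P2 and 106 at P4, 7.86 and 48.0 at P10 and P25 in progenitor medium, and 73.0 and 5.08 in differentiating medium. In other libraries the order of the muscle sum and *Dkk3* differed. The sum was 11.3 TPM at P10 and 50.7 at P25 in progenitor medium, where *Dkk3* had 2.07 and 0.210. In IMOK replicates 2 and 3 the sum was 10.2 and 15.4 TPM, where *Dkk3* had 16.3 and 12.0. *Cnn1* had no count in the 4 libraries of P10 and P25, so it entered the test for passage only through P2 and P4, and its call as falling (adjusted p of 0.0382 by edgeR, 0.177 without P25 in progenitor medium, 0.0156 to 0.425 over the alternatives) adds nothing to these levels. The summed level of the mesenchymal markers was likewise highest at P2 (558 TPM) and in IMOK replicate 1 (481). In mSGc it was lowest at P25 in differentiating medium (137), but P4 (330) lay under P10 in progenitor medium (361). *Col1a1* had 6.68 TPM at P2 and 5.25 in IMOK replicate 1, and no more than 0.555 elsewhere. Others of that list, such as *Dcn* and *Col3a1*, were highest in other libraries. The part of the muscle and mesenchymal markers in the result was not tested.

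Of the other genes tested for passage, *Wnt10a* had a difference per doubling of 0.36 (SE 0.17) with an adjusted p of 0.428 by edgeR, and *Wnt4* of -0.44 (SE 0.24) with 0.484. *Lgr4* had -0.25 (SE 0.11), *Tcf7* 0.23 (SE 0.16) and *Fzd6* 0.07 (SE 0.08). *Lgr5* had -0.83 (SE 0.45), from no more than 16 counts in a library. The level of *Wnt10a* was highest at P25 in progenitor medium and second highest at P4, so it did not follow passage step by step. *Wnt7b*, *Axin2* and *Dkk3* were lower at each later passage in progenitor medium. The values of *Axin2* rest on 46, 13, 5 and 3 counts at P2, P4, P10 and P25, so its steps after P2 are too small to be read.

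The media differed between libraries at P10 and P25 only, and their difference comes from the same fit over all 6 mSGc libraries. None of the 8 genes tested was called by edgeR's quasi-likelihood test, and 0 had an unadjusted p under 0.05, beside 8.18% of all genes. DESeq2 and voom called 0 of them, while DESeq2 called 204 of all genes as higher and 81 as lower. Of all 12451 genes 0.0241% were called by edgeR, or 3 genes, so few genes of any kind passed in that fit. DESeq2, the fit with no filter and that with passage as a block called more, as given below. A member that missed the threshold is not shown to be the same in both media. The count of all genes called was 0 without P2, P4, P10 in differentiating medium or P25 in progenitor medium, 58 without P10 in progenitor medium and 12 without P25 in differentiating medium. The genes at an unadjusted p under 0.05 by edgeR in the fits with no call were 772, 762, 442 and 744. *Wnt10a* was lower in differentiating medium at both passages, by -0.68 at P10 and -0.69 at P25 on the scale of log2(TPM + 1), and *Lgr4* was higher, by 0.55 and 0.80. In the fit these differences were -1.19 (SE 0.52, adjusted p of 0.627 by edgeR) and 0.68 (SE 0.30, 0.633). *Wnt4* went in opposite directions, with 1.32 at P10 and -0.25 at P25. The differences of *Tcf7* were -0.52 and -0.22, those of *Wnt7b* -0.10 and -0.55, those of *Dkk3* -0.47 and -0.28, and those of *Fzd6* 0.31 and 0.17.

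The comparison of P10 mSGc with IMOK used 2 and 3 libraries. Of the 9 genes tested 0 were called by edgeR's quasi-likelihood test, beside 4.20% of 13018 genes in either direction, 1.87% as lower and 2.34% as higher in mSGc. That balance turned from 304 higher and 243 lower to 198 higher and 215 lower without TMM factors, and DESeq2 gave 1119 higher and 1151 lower. At an unadjusted p under 0.05 there were 4, *Wnt7b*, *Lef1*, *Tcf7* and *Dkk3*, beside 3244 of all genes, or 24.9%. DESeq2 called the same 4, where 16.0% of all genes passed, and voom called 0, where 3.06% passed. Without IMOK replicate 1 edgeR called the same 4, where 27.1% of all genes passed, so these counts stand beside a larger background. In TPM, 5 of the 9 genes lay lower in both P10 libraries than in every IMOK library, these 4 and *Wnt10a*, beside 28.8% of all genes, and 0 lay higher, beside 16.3%. With 5 genes of 9 this is too few to be read as differing from all genes. *Wnt7b* had a log2 fold change of -0.94 (SE 0.19) and an adjusted p of 0.0559, which was 0.0207 without IMOK replicate 1, in a range of 0.000286 to 0.260. *Tcf7* had -1.63 (SE 0.43) and 0.0933, or -1.25 and 0.0430 without that library, in a range of 0.00588 to 0.338. *Dkk3* had -4.57 (SE 1.19) and 0.0890, or -2.99 and 0.0126 without it, in a range of 1.44e-05 to 0.347. *Lef1* had no count in either P10 library, and its 4.95 CPM in pooled IMOK was at least 36.4-fold higher than a floor of 3 counts over both P10 libraries. Without IMOK replicate 1 the level was 1.75 CPM and at least 12.9-fold higher than that floor. The adjusted p of *Lef1* was 0.0806 by edgeR and 0.0202 without IMOK replicate 1, in a range of 0.000322 to 0.266. The count of all genes called was 547, and it was 3416 without IMOK replicate 1, 36 without IMOK replicate 2 and 69 without IMOK replicate 3. Leaving out either P10 library leaves 1 mSGc library, which is then assumed to vary as the IMOK libraries do. Calls in such fits rest on the spread of IMOK alone, so no count is read from them here. Their values do enter the ranges over the alternatives. Of the markers, edgeR called *Krt15* as higher (log2 fold change of 5.73, adjusted p of 0.0387) and *Ncam1* as lower (-2.71, 0.0108) at P10. By the same test *Krt15* lost its call without IMOK replicate 3 (0.121) and *Ncam1* without IMOK replicate 2 (0.0680). The part of these markers in the values at P10 was not tested.

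The wider pathway was read from 10 lists that hold 110 genes, the 10 members among them. Between all mSGc and IMOK, 78 of them were tested, 4 were higher and 9 lower, or 16.7%, beside 14.9% of all genes, and their median log2 fold change was -0.21, beside 0.0023. Without the members 69 were tested, 4 were higher and 7 lower, or 15.9%, with a median of -0.20. The share called by edgeR is thus near that of all genes, while DESeq2 called 25.6% of the lists beside 21.6% and voom 24.4% beside 16.6%. Counts of single lists given below stand beside the same 14.9%, or 30.4% at an unadjusted p under 0.05, and the lists are too small to be read as differing from these. The count over all lists was 8 without P10 in differentiating medium and 7 without IMOK replicate 2 or 3. In the comparison of P10 with IMOK, 2 of 78 were called, *Fzd2* and *Apcdd1*, both lower and neither a member, or 2.56% beside 4.20%, by edgeR. DESeq2 called 19 of 83, 7 higher and 12 lower with 4 members among them, or 22.9% beside 16.0%, and voom called 1, *Apcdd1*. *Fzd2* had a log2 fold change of -1.51 (SE 0.26, adjusted p of 0.0418 by edgeR, 1.66e-05 to 0.203 over the alternatives) and *Apcdd1* of -4.29 (SE 0.59, 0.0279, 1.41e-07 to 0.147). The count of list genes called by edgeR was 0 without IMOK replicate 2 or 3 and 21 without IMOK replicate 1. For medium 0 of 73 were called by edgeR, 7 had an unadjusted p under 0.05 beside 8.18% of all genes, and voom called 0. DESeq2 called 2 of 77 for medium, both as higher. Of all genes it called 204 as higher and 81 as lower. The share of all genes in that fit is not given here, so the 2 are not read as a result on the lists. For passage edgeR and voom each called 1 of 73, *Dkk3*, and DESeq2 called 7 of 83, all as falling, or 8.43% beside 5.62%. The count by edgeR was 0 without P2, P4 or P25 in progenitor medium and 2 without P10 in progenitor medium.

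Upstream of the receptors, *Wls*, the carrier of Wnt ligands to the cell surface, stood between 98.7 and 201 TPM in mSGc and between 70.7 and 93.4 in IMOK. It was higher in mSGc by a log2 fold change of 1.08 (SE 0.22), with an adjusted p of 0.0102 by edgeR's quasi-likelihood test. The range was 9.97e-05 to 0.0612, and the call was lost with IMOK replicates 2 and 3 left out (0.0612), an alternative chosen after the data had been seen. *Porcn*, which attaches the lipid to Wnt proteins, was the other gene of Wnt secretion and was not called. Of the 19 ligands 9 were tested between the lines, 0 were called by edgeR, and 3 had an unadjusted p under 0.05. DESeq2 and voom each called 2. These were *Wnt7b* as lower and *Wnt9a* as higher in mSGc by DESeq2, and *Wnt7b* and *Wnt3a*, both as lower, by voom. By edgeR 3 of the 9 ligands had a positive and 6 a negative log2 fold change. Their median was -0.96, the value of *Wnt7b* itself, beside 0.0023 for all genes.

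Among 10 Frizzled receptors 9 were tested and *Fzd2* was called. It stood between 7.46 and 18.5 TPM in mSGc and between 26.8 and 42.0 TPM in IMOK. Its log2 fold change was -1.09 (SE 0.30), and the adjusted p was 0.0361 by edgeR. The call held in 4 of the 9 fits that left out a library and was lost without P10 in progenitor medium (0.0641), P10 in differentiating medium (0.0555) or IMOK replicate 1 (0.0961), 2 (0.0901) or 3 (0.0781), in a range of 0.00960 to 0.134 over the alternatives. Of 6 co-receptors and alternative receptors, *Ror2*, a tyrosine kinase receptor for non-canonical Wnt ligands, was higher in mSGc. It stood between 2.51 and 10.9 TPM there and at 0.296, 0 and 0.0314 TPM in the IMOK replicates, with a log2 fold change of 6.21 (SE 1.05) and an adjusted p of 0.00447 by edgeR. Without IMOK replicate 1, which holds 10 of the 11 IMOK counts, these were 8.59 and 0.00317, in a range of adjusted p from 2.49e-13 to 0.0659. No IMOK library reached the level of the filter, so *Ror2* entered the test only through mSGc. *Ptk7* and *Ryk*, the most abundant of that list with means of 111 and 85.8 TPM, were not called.

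Of the 9 genes of the R-spondin axis 4 were tested and 2 were lower in mSGc. *Rnf43*, a ligase that removes Frizzled receptors from the surface, stood between 0.491 and 2.40 TPM in mSGc and between 5.17 and 6.70 in IMOK. Its log2 fold change was -1.89 (SE 0.51) and its adjusted p 0.0345 by edgeR, and the call was lost without P10 (0.0582) or P25 (0.0514) in differentiating medium or IMOK replicate 2 (0.126) or 3 (0.0975), in a range of 0.00378 to 0.307. *Lgr6*, another R-spondin receptor, stood at 36.9, 0.448 and 0.758 TPM in the IMOK replicates and at no more than 0.742 TPM in mSGc. The lines overlapped, and IMOK replicate 1 alone was high. The log2 fold change was -5.72 (SE 1.41) with an adjusted p of 0.0237 by edgeR. Without IMOK replicate 1 these were -1.53 and 0.402, without P4 the adjusted p was 0.0529, and without P10 in differentiating medium the fold was -6.83 (0.0229), in a range of 0.0165 to 0.402. *Znrf3*, the partner ligase, had a mean of 6.75 TPM.

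Of 17 secreted and surface inhibitors 6 were tested, and *Apcdd1*, a membrane inhibitor that is also a target, was lower in mSGc. It stood at no more than 0.675 TPM in mSGc and between 4.19 and 5.41 TPM in IMOK. Its log2 fold change was -3.92 (SE 0.69) and its adjusted p 0.00543 by edgeR, in a range of 3.45e-08 to 0.0754, the highest with IMOK replicates 2 and 3 left out. *Apcdd1*, *Pygo1* and *Lgr6* each reached the level of the filter in 1 mSGc library and all 3 IMOK libraries, so they too entered the test through IMOK. *Sostdc1* and *Kremen1*, the most abundant inhibitors by the mean over the 9 libraries (47.8 and 32.4 TPM), were not called by edgeR. *Sostdc1* had 186 TPM in IMOK replicate 1, and within mSGc its median of 12.9 lay under the 24.3 of *Kremen1*. All 17 cytoplasmic transducers were tested and *Dvl1* was called as higher, with a log2 fold change of 0.67 (SE 0.20), an adjusted p of 0.0495 by edgeR and overlapping levels. That call held in 1 of the 9 fits that left out a library, the one without P25 in differentiating medium, and the adjusted p in the other 8 ran from 0.0646 without P25 in progenitor medium to 0.166 without IMOK replicate 3, with 0.0648 without replicate 1, in a range of 0.0185 to 0.390 over the alternatives. *Ctnnb1*, which encodes β-catenin, had a mean of 488 TPM and *Csnk1a1* of 332 TPM.

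All 13 TCF/LEF factors and nuclear partners were tested, 1 was higher and 4 were lower in mSGc, *Lef1* and *Tcf7* among them, or 38.5% beside 14.9% of all genes. *Lef1* and *Pygo1* passed the filter through IMOK. *Bcl9*, a β-catenin coactivator, stood between 5.40 and 9.58 TPM in mSGc and between 19.7 and 23.4 TPM in IMOK. Its log2 fold change was -1.39 (SE 0.18), and the adjusted p was 0.00117 by edgeR, in a range of 2.41e-10 to 0.0435. *Pygo1*, its partner, stood at no more than 1.12 TPM in mSGc and at up to 8.41 TPM in IMOK, where each library lay above all of mSGc, with -3.02 (SE 0.82) and 0.0347. Its call held without P10 in progenitor medium and without P25 in differentiating medium, and it was lost in the other 7 fits that left out a library, with 0.0520 without P25 in progenitor medium at the lowest and 0.133 without IMOK replicate 1 at the highest, where the log2 fold change was -2.10, in a range of 0.00551 to 0.133. The corepressor *Tle1* was higher in mSGc, between 16.0 and 19.1 TPM against 9.27 to 10.9, with a log2 fold change of 1.06 (SE 0.18) and an adjusted p of 0.00510 by edgeR, in a range of 2.84e-07 to 0.0531, the highest with IMOK replicates 2 and 3 left out. *Pygo2* and *Ctnnbip1* were the most abundant of the list, with means of 49.6 and 47.2 TPM.

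Of 17 widely used targets, a list that shares genes with the others, 11 were tested and 4 were lower in mSGc, *Rnf43*, *Apcdd1*, *Lef1* and *Tcf7*, and 0 were higher by edgeR, or 36.4% beside 14.9% of all genes in either direction and 8.30% as lower. All 4 are counted in other lists too, and *Lef1* and *Apcdd1* entered the test through IMOK. An unadjusted p under 0.05 was reached by 5 of the 11, beside 30.4% of all genes, and DESeq2 and voom also called *Cd44*, as higher. Over these 11 genes the median difference was 0.17 on the log2 scale. *Ccnd1* and *Cd44* led it with means of 430 and 182 TPM and were not called by edgeR. Among 8 planar polarity genes 7 were tested and *Vangl2* was lower in mSGc, between 13.2 and 18.8 TPM against 27.7 to 33.2, with a log2 fold change of -0.71 (SE 0.20) and an adjusted p of 0.0375 by edgeR. The call was lost without P2 (0.0628), P10 (0.0519) or P25 (0.0621) in differentiating medium, or IMOK replicate 1 (0.0597), 2 (0.153) or 3 (0.0877), in a range of 0.00536 to 0.255. *Vangl1* and *Daam1* had means of 48.4 and 23.8 TPM.

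**Figure D3:**
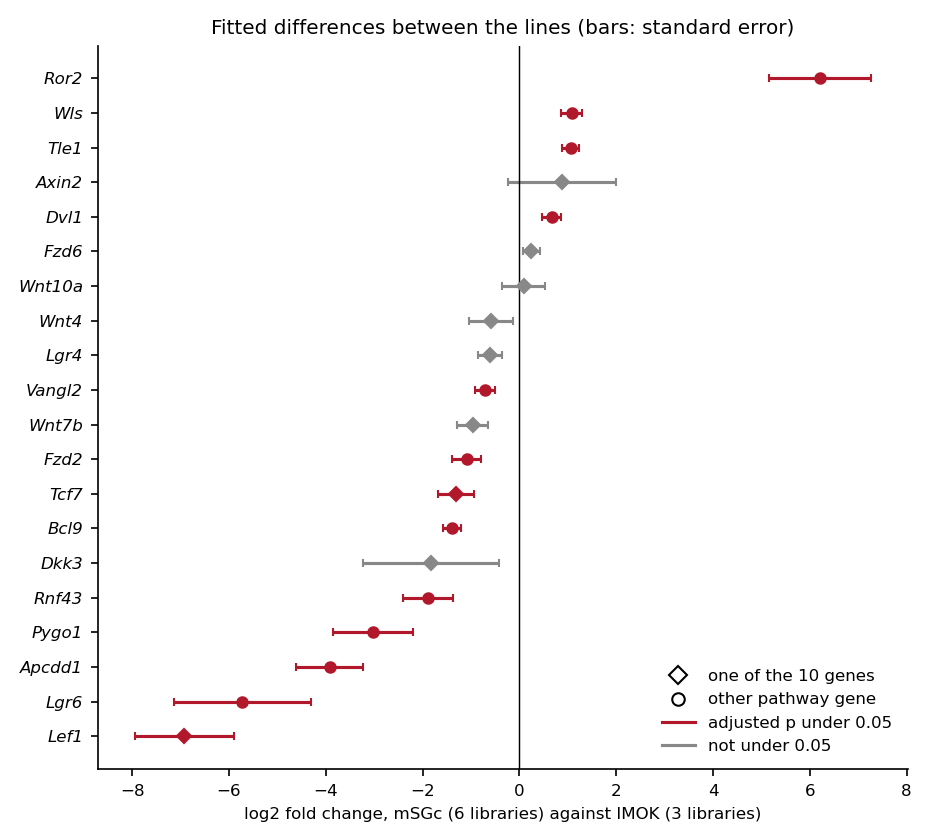
Log2 fold change of all mSGc against IMOK, with standard errors as bars, for the 9 members tested (diamonds) and the other pathway genes called (circles), in red where the adjusted p was under 0.05. *Lef1* lies lowest among the called genes at -6.92, a fitted size that depends on the prior count, and *Ror2* highest at 6.21.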

How the data were processed

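The authors deposited raw counts per gene in 2 tables. Their processing notes name TopHat2 2.1.1, Bowtie2 2.2.6, featureCounts 1.5.1, DESeq2 1.12.4 and the mm9 build. Annotation, strand and treatment of reads with several matches are not given in the sources used here. TPM was computed from counts and the tables' gene lengths.

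The tests used edgeR 4.0.16 under R 4.3.3 (quasi-likelihood test, TMM, filterByExpr, Benjamini-Hochberg adjustment over all genes tested, threshold 0.05), with DESeq2 1.42.0 and voom of limma 3.58.1 as alternatives. Tables were made with pandas 2.3.3, scipy 1.17.1, numpy 2.4.6 and Python 3.11.15. Standard errors are the absolute log2 fold change over the square root of F. Medium and log2 passage were fitted jointly, with 3 residual degrees of freedom. All results come from the deposited counts, and the code of the tests was first checked on simulated ones. Genes named are the 10 members, list genes called in any of 4 tests, the 2 most abundant of each of 10 lists, and for *Axin2* and *Lgr5* the 3 most alike with a mean of at least 5 TPM. The 8 marker lists covered basal, pan epithelial, acinar, myoepithelial, mesenchymal, endothelial, immune and Schwann cells, and 1 marker is not reported here. *Wnt3a* and *Wnt9a* were named after their values were seen. Alternatives also included no TMM factors, other filters on low counts, untransformed passage, fewer libraries and leaving out each library. Members and lists were chosen with earlier results of these data known.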

Additional observations from a re-analysis of the deposited data

Results flagged for a closer look

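In the 6 mSGc libraries, *Axin2* and *Dkk3* had a single library far above the others, with 2.04 TPM and 49.9 TPM at P2. The gap to the next library was 0.818 and 0.715 of the whole range, above Dixon's critical value for 6 libraries. Among like libraries chance marks about 1 in 20 groups in this way, but these 6 differ in passage and medium. Both genes were lower at each later passage in progenitor medium, so the mark cannot tell a stray library from that course. For *Axin2*, which was not tested for passage, the steps after P2 rest on 13, 5 and 3 counts at P4, P10 and P25. These are too few to show a steady fall. *Lef1* was 0.0638 TPM at P25 in progenitor medium and had no count in the other 5 mSGc libraries, so its gap is the whole range by construction. It rests on 2 counts, under the floor of 3 that a count of 0 allows, and does not set that library apart.

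*Wnt4* differed between the media in opposite directions at the 2 passages: differentiating minus progenitor medium was 1.32 at P10 and -0.25 at P25 on the scale of log2(TPM + 1). With 1 library for each condition this difference was not tested.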

How the results depend on the processing

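Of 618 gene values under alternatives, 510 kept their direction and their side of the threshold, 76 lost a call, 13 gained a call and 19 turned direction. Counts below are genes with an adjusted p under 0.05, and members are the 10 Wnt genes. The cause of these shifts was not tested.

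For all mSGc against IMOK, DESeq2 called 3055 genes, the fit with IMOK replicates 2 and 3 left out called 515, and leaving out each library gave 738 to 1918. The members called were 1 with at least 10 counts in every library, 1 with progenitor medium libraries only, 1 with IMOK replicates 2 and 3 left out, and 1 to 2 when each library was left out. For P10 mSGc against IMOK, DESeq2 called 2270 genes and 4 members, at least 10 counts gave 272 genes, and IMOK replicates 2 and 3 left out gave 97 genes and 1 member. Leaving out each IMOK library gave 36 to 3416 genes and 0 to 4 members. The fits with IMOK replicates 2 and 3 left out were added after acinar transcripts had been seen in them, and in these fits a single IMOK library is assumed to vary like the other libraries.

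For medium, DESeq2 called 285 genes, voom 0 (1074 at an unadjusted p under 0.05), no filter 36, at least 10 counts 1, and passage as a block at P10 and P25 gave 123, with 0 to 58 when each library was left out. For passage, DESeq2 called 750 genes and 2 members, no filter 161 genes, at least 10 counts 3 genes and 0 members, untransformed passage 126 and progenitor medium only 31. Leaving out each library gave 0 to 329 genes and 0 to 1 member.

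Log2 fold changes that turned direction were small or uncalled. Against IMOK, *Wnt10a* had -0.01 with voom, -0.02 without TMM factors and -0.19 to 0.27 when each library was left out, and *Axin2* had -0.29 to 1.68 in those fits. At P10 *Wnt4* had 0.05 with IMOK replicates 2 and 3 left out, *Fzd6* had -0.00097 without TMM factors and -0.08 to 0.20 when each library was left out, and *Axin2* had -0.25 to 0.32. For medium, *Wnt4* had -0.52 to 0.80 and *Lgr5* -3.78 to 0.18 when each library was left out, and *Fzd6* had -0.01 with no filter, -0.0033 with at least 10 counts and -0.13 to 0.22 when each library was left out. For passage, *Fzd6* had -0.02 to 0.13. *Lgr5*, *Axin2* and *Lef1* rest on few counts, so depth limits what can be read from them. No replicate numbers pair libraries across groups, since only IMOK has replicates, and the fit with passage as a block is the only one that pairs libraries, by passage.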
